A study of Mus musculus with 17 samples.

Results

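The heat-shock protein and chaperonin genes of 17 single mouse skin cells were described. Members were defined by gene name, and this choice was made with earlier results of these data known. They were the rows whose symbol begins with Hspa to Hspe, Hsph, Hsp9 or Dnaj, or names a TRiC subunit (Tcp1, Cct2 to Cct8), a BAG protein (Bag1 to Bag6) or a heat-shock factor (Hsf). This gave 65 genes of the 8431 symbols in the table. All cells form 1 group. Each is a Tomato+ cell from the back skin of adult C57BL/6 mice of genotype Prrx1-CreERT;Tomato, in which tamoxifen lets Cre recombine the reporter in cells with Prrx1 activity. The mice received tamoxifen at 2 mg per 30 g once a day for 3 days. Because only marked cells were sorted, cells without Prrx1 activity at that time are not represented. No animal is named for any cell, and there is no untreated or undigested group.

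The tissue was kept at 37 °C with elastase (0.2 mg/ml) for 20 min and with collagenase (4 mg/ml) for 1.5 h before sorting and picking. All levels below had passed through these steps. Levels are given on the deposited log scale, which was taken to be log2(FPKM + 1). FPKM is a fragment number scaled by transcript length and by library size. Detection means FPKM 1 or more, which is a deposited value of 1. The kit reads transcript 3′ ends, so dividing by length can lower long genes, and levels of different genes are compared on this per-length scale only. The sorted values were the same in every cell, as quantile normalisation gives, so each cell had 4369 rows at FPKM 1 or more and depth is unknown. What still differed between libraries was the number of rows at the lowest value, 871 to 1766, highest in cell 17. The cells carried fibroblast markers, with 8 or 9 of the 9 measured markers detected in each cell. At FPKM 10 no cell had more than 1 of 3 measured endothelial or 1 of 6 measured mural markers. Up to 5 of the 6 mural markers reached FPKM 1 in a cell. For keratinocytes and for immune cells only 1 of 7 listed markers had a row, so these types could not be judged this way. At FPKM 10, 6 cells had 2 or more of 3 adipocyte markers and 2 cells had 2 of 3 melanocyte and Schwann cell markers.

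Chaperones bind unfolded proteins and help them fold or pass them on for degradation. HSP70 proteins work in cycles set by J proteins (the Dnaj genes), which deliver clients, and by exchange factors such as several BAG proteins. HSP90 finishes folding of selected clients, and the ring-shaped TRiC chaperonin folds actin and tubulin. Some of these genes are made all the time. Others are switched on by heat-shock factor 1 when proteins unfold, through heat shock elements in their promoters, and chaperones of the endoplasmic reticulum (ER) answer to a separate stress pathway with its own element. Enzyme digestion of tissue at warm temperature is known to induce heat-shock and immediate-early genes.

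Promoter windows of RefSeq (GRCm38.p6, from 250 bases before to 50 after each annotated start) were available for 51 of the 65 members. They were searched on both strands for heat shock elements and for the ER stress element. The 2-unit heat shock element is GAANNTTC or TTCNNGAA, where N is any base. The 3-unit form is GAANNTTC followed, after any 2 bases, by GAA, so it contains the 2-unit form. The ER element is CCAAT and CCACG with any 9 bases between them. A gene counted when any of its windows held a match. The 3-unit form was in Hsph1, Hspd1, Hspe1 and Dnajb6, which is 4 of 51 members against 0.662% of all 27025 genes. The 2-unit form was in 8 of the 9 inducible members with a window, in 3 of 11 constitutive members and in 17% of all genes. The 9 inducible members had 14 windows between them, and all 27025 genes had 32851, so the inducible genes had more windows per gene. The ER element was in Hspa5, Hsp90b1 and Dnajc3, 3 of 8 ER members against 0.137% of all genes. A match describes letters in a window and is not shown to be a site in use. The stretches below carry the clearest matches, and the capitals mark them.
Hspb1 (chr5:135887787-135887844, plus strand, 2-unit matches): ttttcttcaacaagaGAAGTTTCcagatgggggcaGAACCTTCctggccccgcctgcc
Hspa1a (chr17:34972223-34972290, minus strand, 2-unit match): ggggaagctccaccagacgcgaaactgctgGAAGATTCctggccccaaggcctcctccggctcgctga
Hspe1 (chr1:55088053-55088082, plus strand, overlapping 3-unit matches): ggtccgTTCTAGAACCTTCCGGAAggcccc
Dnajb6 (chr5:29735844-29735872, plus strand, 3-unit match): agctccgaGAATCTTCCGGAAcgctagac
Hspa5 (chr2:34772020-34772048, plus strand, ER element): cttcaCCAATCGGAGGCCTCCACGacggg
Dnajc3 (chr14:118937812-118937860, plus strand, ER element): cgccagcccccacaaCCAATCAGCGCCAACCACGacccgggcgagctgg
Hsp90b1 (chr10:86705518-86705671, minus strand, ER element on either strand): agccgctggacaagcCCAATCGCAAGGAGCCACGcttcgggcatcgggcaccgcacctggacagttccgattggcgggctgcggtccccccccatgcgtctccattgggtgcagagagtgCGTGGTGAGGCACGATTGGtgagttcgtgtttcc
The Hspa1a stretch is letter for letter that of Hspa1b (chr17:34959305-34959372). Over the 250 bases before their starts the pair shared 247 bases. The Hspe1 stretch lies in an annotated exon of Hspd1, which is read in the opposite direction from the same region, and the Hspd1 window holds the same match. The Hspa5 stretch also lies in an annotated exon of that gene, and the Dnajb6 stretch in exons of Dnajb6 and Gm5129.

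**Figure D1:**
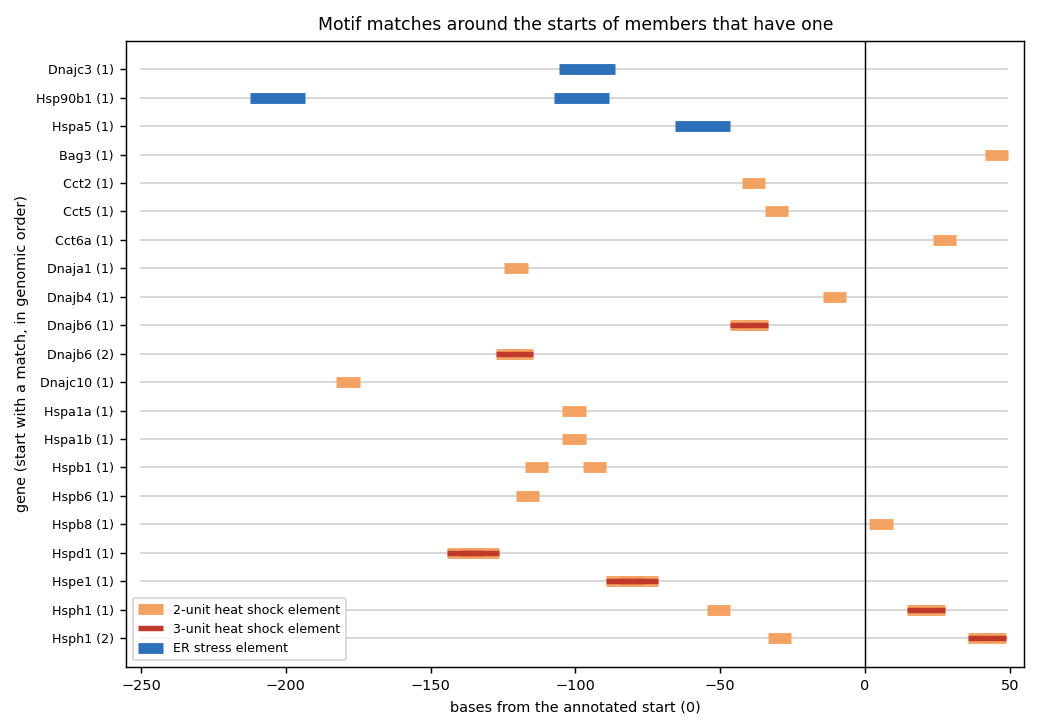
Matches to the 2-unit and 3-unit heat shock elements and the ER stress element in the promoter windows of members that have one. The horizontal axis is the distance in bases from the annotated start, and each grey line is a window. ER elements appear only in Dnajc3, Hsp90b1 and Hspa5, and 3-unit heat shock elements only in Dnajb6, Hspd1, Hspe1 and Hsph1.

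Chaperone genes were among the better detected genes of these cells. Of the 65 members 15 were detected in all 17 cells, where the share over all symbols was 13%. In 9 or more cells 44 members were detected, against 46.9% of all symbols, while 19 members were detected in 1 to 8 cells and 2 members, Hspa2 and Hspb6, in none. The median of the members' mean deposited values was 4.26, and over all symbols it was 1.89. Each cell had 40 to 48 of the members. The highest were the cytosolic HSP90 gene Hsp90ab1 and the constitutive HSP70 gene Hspa8, at ranks 159 and 163 of 8431 by mean level. Hsp90aa1, Hspa5 and Hsp90b1 followed at ranks 228, 252 and 338.

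**Figure D2:**
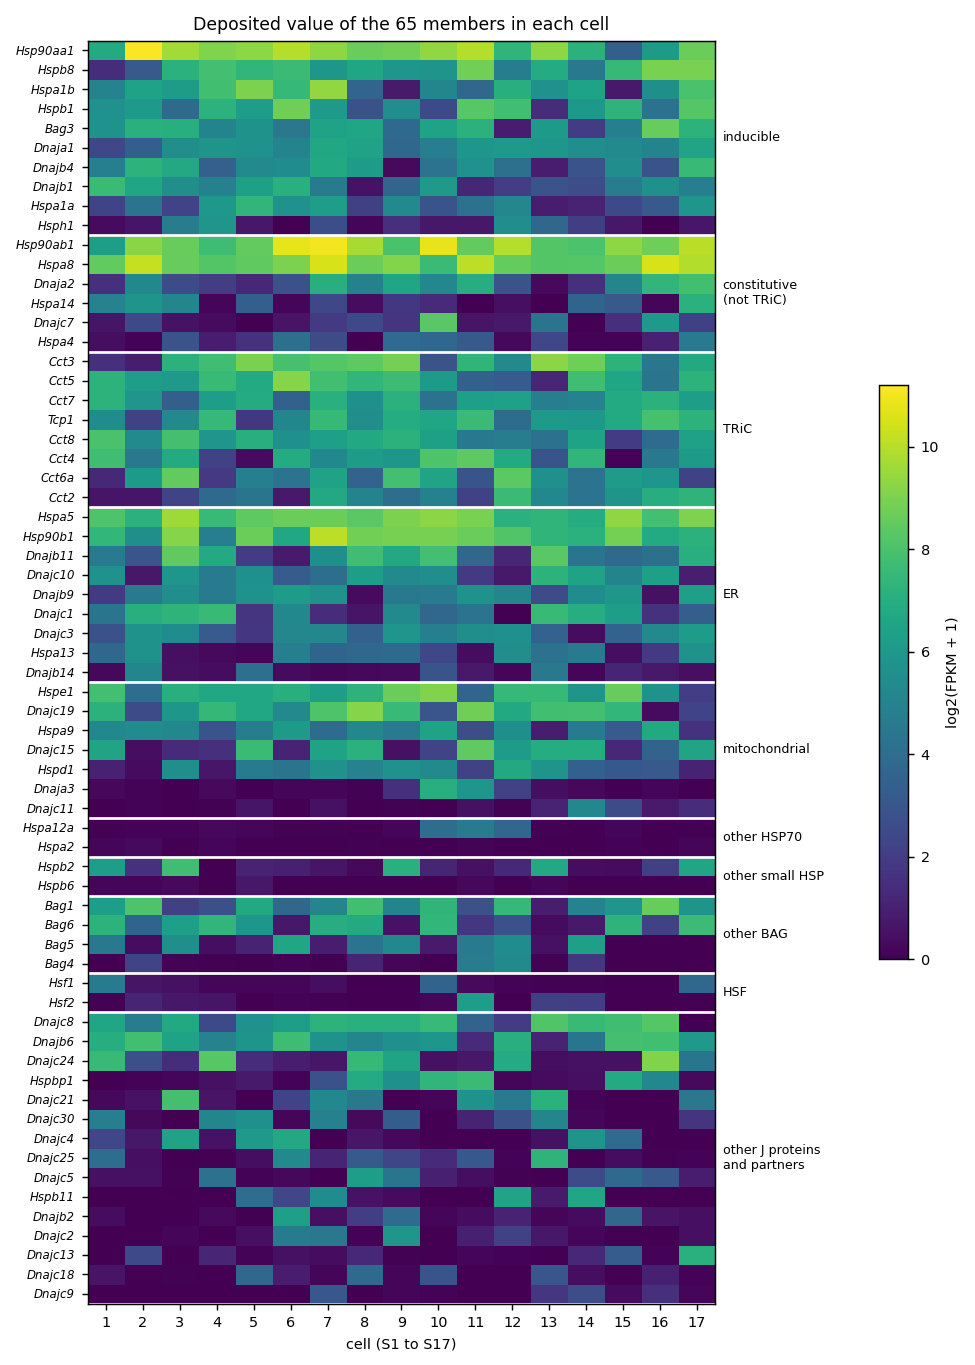
Deposited value, log2(FPKM + 1), of each of the 65 members (rows, grouped by role and ordered by mean) in each of the 17 cells (columns). Hsp90aa1, Hsp90ab1, Hspa8, Hspa5 and Hsp90b1 are bright across the cells, whereas the heat-shock factors and many J protein genes appear in a few cells only.

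Most heat-inducible genes were detected in most of these cells, and so were the constitutive genes. No undigested cells were analysed here, so the levels cannot be compared with those in intact skin. All 10 genes of the inducible list had a row, 9 were detected in 9 or more cells and 4 in all 17. Of the 14 constitutive genes, 14 were detected in 9 or more cells and 7 in all 17. The shares over all symbols were 46.9% and 13%. Mean levels of the inducible genes ran from 1.80 to 8.47 with a median of 5.45. Hsp90aa1, the stress-inducible cytosolic HSP90 (chr12:110690605-110702728), ranged from 3.39 in cell 15 through a median of 9.06 to 11.13 in cell 2. It was above 8 in 12 cells, and cell 15 stood lowest, followed by cell 16 at 6.11. Hspa1b and Hspa1a, the classic inducible HSP70 genes (chr17:34956436-34959238 and chr17:34969190-34972156), are near-identical neighbours, and reads may have been split between them.

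Hspa1b was the more abundant of the pair in these values, from 0.76 in cell 15 through a median of 6.13 to 9.40 in cell 7. It was detected in 15 cells, and the 2 cells below FPKM 1 were cells 9 and 15. Hspa1a ranged from 0.90 in cell 13 through a median of 4.18 to 7.38 in cell 5, and only cell 13 fell below FPKM 1. Hspa1b and Hspa1a correlated at 0.47 over the 17 cells (Spearman 0.65, and 0.42 without cells 5 and 13). The copies were far apart in single cells and in either direction. Hspa1b was the higher in cell 14 (6.48 against 1.12) and Hspa1a in cell 9 (5.32 against 0.81).

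The small heat-shock proteins, which hold unfolding proteins in a refoldable state, were represented by Hspb8 and Hspb1. Hspb8 ranged from 1.48 in cell 1 through a median of 6.89 to 8.95 in cell 17, and Hspb1 from 1.46 in cell 13 through 6.03 to 8.78 in cell 6. Both were detected in all 17 cells, with 3 cells above 8 for each gene. Bag3, which links HSP70 and Hspb8 to autophagy, ranged from 0.91 in cell 12 through a median of 6.10 to 8.59 in cell 16 and was detected in 16 cells.

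Among the inducible J protein genes, Dnaja1 was the steadiest, from 2.43 in cell 1 through a median of 5.54 to 6.73 in cell 7 (SD 1.16 over the 17 cells). Dnajb1, the J protein most tied to the heat-shock response, ranged from 0.55 in cell 8 through 4.77 to 7.62 in cell 1. Dnajb4 ranged from 0.30 in cell 9 through 5.29 to 7.61 in cell 17. Cell 1 held the highest Dnajb1 and the lowest Dnaja1. Hsph1, an HSP110 exchange factor for HSP70, was the least detected inducible gene. It was found in 7 cells, with a median of 0.73, and was highest in cell 4 at 5.83 and cell 12 at 5.50.

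The constitutive cytosolic genes included the highest and some of the lowest members. Hspa8 (chr9:40800984-40810087), the HSP70 of unstressed cells, ranged from 7.63 in cell 10 through a median of 8.67 to 10.52 in cell 16. Its SD of 0.90 was among the smallest of the well-detected members, and 16 cells were above 8. Hsp90ab1 (chr17:45567775-45573271), the constitutive HSP90, ranged from 6.27 in cell 1 through 8.71 to 11 in cell 7, with 14 cells above 8.

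The partners of HSP70 in this list were lower and patchy. Dnaja2, a J protein that delivers clients to HSP70, ranged from 0.31 in cell 13 through a median of 4.94 to 7.81 in cell 17. Hspa4, an HSP110 exchange factor, ranged from 0.00 in cell 8 through 1.61 to 4.62 in cell 17. Hspa14, a ribosome-linked HSP70, was detected in 10 cells (median 1.83, highest 7.14 in cell 17), and Dnajc7, which binds both HSP70 and HSP90, in 9 cells (median 1.52, highest 8.32 in cell 10). The identifier of the Hspa14 row is named Gm45902 in GENCODE M21, and its exons share 321 bases with the gene that carries the name Hspa14 there. Leaving aside the TRiC subunits, the constitutive list thus joined 2 genes near 9 to 4 genes with means of 4.19 or less.

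**Figure D3:**
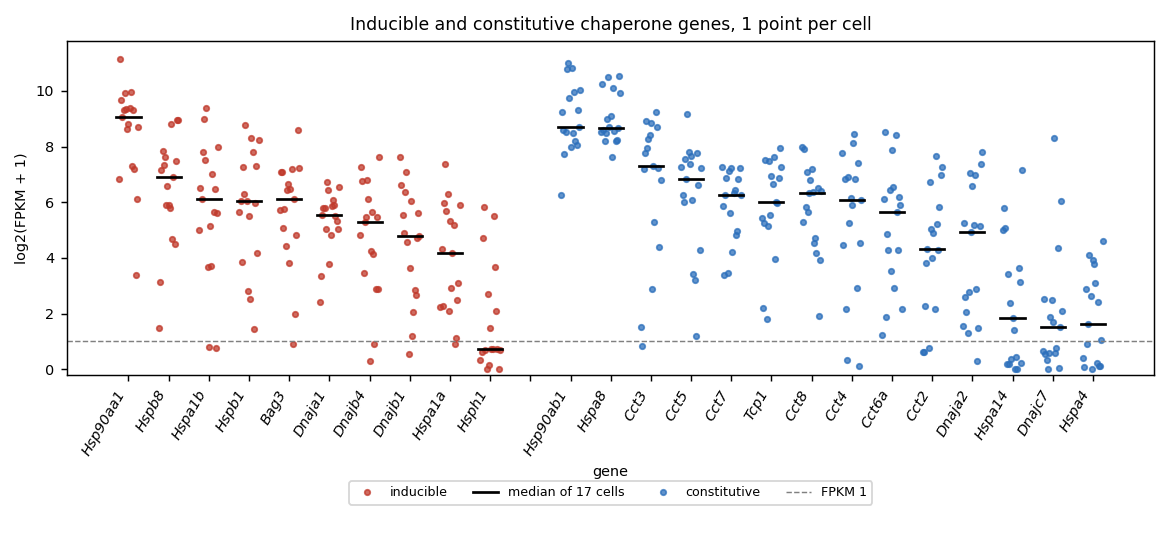
Deposited value, log2(FPKM + 1), of each inducible gene (red) and constitutive gene (blue), with 1 point per cell, a black bar at the median of the 17 cells and a dashed line at FPKM 1. The inducible genes span medians from 0.73 (Hsph1) to 9.06 (Hsp90aa1), and the constitutive genes from 1.52 (Dnajc7) to 8.71 (Hsp90ab1), so both lists cover much of the same range.

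TRiC is built from 8 kinds of subunit in equal numbers, and all 8 broadly expressed subunit genes were measured. The testis-type subunit Cct6b had no row. Each cell had 6 to 8 of the 8 subunit genes, and 5 genes were detected in all 17 cells. Mean levels on the log scale ran from 4.26 for Cct2 to 6.56 for Cct3. Within single cells the subunits were far apart. Cct3 ranged from 0.84 in cell 2 through a median of 7.31 to 9.24 in cell 13. Cct5 ranged from 1.19 in cell 13 through 6.84 to 9.15 in cell 6, so that cell 13 held the highest Cct3 and the lowest Cct5.

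Cct7 was the steadiest subunit gene, from 3.40 in cell 3 through a median of 6.26 to 7.26 in cell 1 (SD 1.29 over the 17 cells). Tcp1 ranged from 1.79 in cell 5 through 6.01 to 7.96 in cell 16, and Cct8 from 1.93 in cell 15 through 6.34 to 7.97 in cell 1. Cct4 ranged from 0.11 in cell 15 through 6.09 to 8.43 in cell 11. The remaining subunit genes reached down to values near FPKM 1, with Cct6a from 1.24 in cell 1 to 8.52 in cell 3 (median 5.64) and Cct2 from 0.62 in cell 1 to 7.64 in cell 12 (median 4.31). Averaged over the 8 subunits, cells ran from 3.96 in cell 2 to 6.95 in cell 9.

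The ER chaperones were led by Hspa5 and Hsp90b1, the HSP70 and HSP90 of that compartment. Hspa5 (chr2:34771970-34777547) ranged from 6.92 in cell 14 through a median of 8.42 to 9.58 in cell 3, the smallest spread among members detected in all 17 cells (SD 0.85). Hsp90b1 (chr10:86690209-86705509) ranged from 4.81 in cell 4 through 8.16 to 10.07 in cell 7. These were the only ER members of the 9 measured that were detected in all 17 cells.

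The ER J proteins were lower. Dnajb11, a luminal partner of Hspa5, ranged from 0.81 in cell 6 through a median of 4.59 to 8.48 in cell 3. Dnajc3, an inhibitor of the PERK stress kinase, ranged from 0.37 in cell 14 through 5.17 to 6.13 in cell 17, and Dnajb9, which recruits Hspa5 to the stress sensor IRE1, from 0.33 in cell 8 through 5.14 to 6.30 in cell 17. Dnajc10, a disulfide reductase, reached 7.26 and Dnajc1, which sits at the ER membrane, 7.53, both in cell 13, and their lowest values were 0.71 in cell 2 and 0.00 in cell 12, around medians of 5.36 and 4.35. Cell 13 also had the highest mean over the ER members, 5.84, and cell 12 the lowest, 3.76.

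Hspa13, an ER-associated HSP70, ranged from 0.20 in cell 5 through a median of 3.73 to 5.74 in cell 17. Dnajb14, a J protein of the ER membrane, was detected in 5 cells, with a median of 0.45 and a highest value of 5.15 in cell 2. Of the 13 measured ER folding and stress genes outside the members, 10 were detected in all 17 cells, with a median of means of 5.74. P4hb (protein disulfide isomerase, mean 10.22), Manf (mean 8.10) and Atf4 (mean 7.47) were the highest by mean.

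Mitochondrial chaperones were moderate in level. Hspe1 and Hspd1 encode the mitochondrial HSP10 and HSP60, which form 1 folding chamber, and are head-to-head neighbours (chr1:55088132-55091307 and chr1:55077835-55088243). Hspe1 ranged from 2.06 in cell 17 through a median of 7.04 to 9.08 in cell 10. Hspd1 ranged from 0.32 in cell 2 through 4.30 to 6.80 in cell 12. They correlated at 0.56 over the 17 cells (Spearman 0.45, and 0.55 without cells 2 and 4). Their annotated exons share 112 bases on opposite strands, and whether the counting used strand is not stated, so reads there cannot be told apart. The shared bases lie at the starts of both genes, whereas the kit reads 3′ ends. How many reads fell there is not known.

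Hspa9, the mitochondrial HSP70 that pulls proteins into the organelle, ranged from 0.84 in cell 13 through a median of 4.71 to 6.78 in cell 16. Its import motor partners Dnajc19 and Dnajc15 were uneven, Dnajc19 from 0.32 in cell 16 through 7.19 to 9.15 in cell 8, and Dnajc15 from 0.44 in cell 2 through 6.21 to 8.45 in cell 11. The J protein genes Dnaja3, of the matrix, and Dnajc11, of the inner membrane folds, were detected in 4 cells each, with medians of 0.20 and 0.11 and highest values of 7.0 in cell 10 and 5.23 in cell 14. Averaged over the mitochondrial members, cell 2 was lowest at 1.86 and cell 12 highest at 5.02.

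The BAG genes other than Bag3 differed in how often they were found. Bag1 was detected in 16 cells, from 0.85 in cell 13 through a median of 5.78 to 8.60 in cell 16. Bag6, which guards tail-anchored proteins on their way to membranes, split the cells, from 0.34 in cell 13 through 5.89 to 7.66 in cell 17, with 10 cells at FPKM 10 or more and 4 below FPKM 1. Bag5 was detected in 9 cells (median 1.07, highest 6.65 in cell 6) and Bag4 in 5 (median 0.07, highest 5.34 in cell 12). Bag2 had no row.

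Heat-shock factors were hardly detected. Hsf1, the main activator of the heat-shock response, was found in 3 cells, with 4.67 in cell 1, 3.73 in cell 17 and 3.54 in cell 10, and its median was 0.18. Hsf2 was found in 4 cells, highest in cell 11 at 6.27, with a median of 0.06. With depth unknown, a value below FPKM 1 does not show that the factor was absent from a cell. Of the small heat-shock proteins known from muscle, Hspb6 never exceeded 0.70, and Hspb2 was at FPKM 10 or more in 5 cells, between 6.22 and 7.75 in cells 1, 3, 9, 13 and 17. Hspb2 shares 252 of its 834 exonic bases with Cryab on the opposite strand, and Cryab was high in these cells (mean 8.03), and the genes correlated at -0.19 (-0.44 without cells 3 and 9, and 0.00056 within cells 6 to 14).

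The HSP70 relatives Hspa12a and Hspa2 were the lowest of that family. Hspa12a was detected in 3 cells, between 3.69 and 4.65 in cells 10 to 12, and had a median of 0.10. Hspa2, known from testis, stayed at or under 0.30. The genes Hspa1l, Hspa4l and Hspa12b had no row.

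A further 15 members fall in none of these classes and are mostly J proteins with a special task. Dnajb6, which keeps proteins from aggregating, was the only 1 detected in all 17 cells, from 1.08 in cell 13 through a median of 5.86 to 7.88 in cell 15. It carries the 3-unit heat shock element printed above and was not on the inducible list. Dnajc8, linked to splicing, ranged from 0.00 in cell 17 through 6.79 to 8.23 in cell 16 and was detected in 16 cells.

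Several others were high in some cells and below FPKM 1 in others. Dnajc24, a factor for diphthamide synthesis, was detected in 10 cells and reached 9.09 in cell 16 around a median of 1.45. Hspbp1, which binds HSP70, was detected in 7 cells (highest 7.66 in cell 11, median 0.51), Dnajc21, a ribosome assembly factor, in 8 (highest 7.90 in cell 3, median 0.59), and Dnajc4 in 6 (highest 6.74 in cell 6, median 0.57). Hspb11, an intraflagellar transport protein despite its name, was detected in 5 cells and was highest in cell 14 at 6.63. The remaining 8 of these genes, among them Dnajc5, Dnajc13 and Dnajc9, had means from 0.57 to 2.08, and Dnajc9 and Dnajc18 never exceeded 3.06 and 3.81.

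Inducible and constitutive members were then set against each other. The median of mean levels was 5.45 for the 10 inducible and 5.55 for the 14 constitutive genes. Without TRiC subunits the constitutive median was 3.28. Per cell, the inducible mean ran from 3.94 in cell 9 to 6.66 in cell 17 (median 5.07, SD 0.94 over 17 cells), and the constitutive mean from 4.39 in cell 1 to 6.51 in cell 17 (median 5.10, SD 0.69). The constitutive SD was 1.03 without the TRiC subunits. The inducible mean exceeded the constitutive mean in 8 cells, by most in cell 4 (1.86), and fell below it in 9 cells, by most in cell 9 (-2.26). Cell 17 had 7 of 10 inducible and 10 of 14 constitutive genes above their own median, and cell 9 had 2 and 10.

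Members of each list did not rise and fall tightly together. Over the 17 cells the mean Pearson correlation between inducible members was 0.133 (SD 0.250 over 45 pairs, of which 34 were above 0). Between constitutive members it was 0.0641 (SD 0.244 over 91 pairs, 55 above 0). Across the lists it was 0.0440 (SD 0.258 over 140 pairs, 78 above 0), and over all 7540 symbols detected in 3 or more cells it was -7.48e-05. These are descriptions over cells that share normalisation and may share an animal, and no test of a difference between the lists was made. Among the 8 TRiC subunit genes the mean was 0.000432 (SD 0.242), with 12 of 28 pairs above 0. Without those subunits the constitutive mean was 0.197, and with only constitutive members detected in all 17 cells it was 0.00169.

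**Figure D4:**
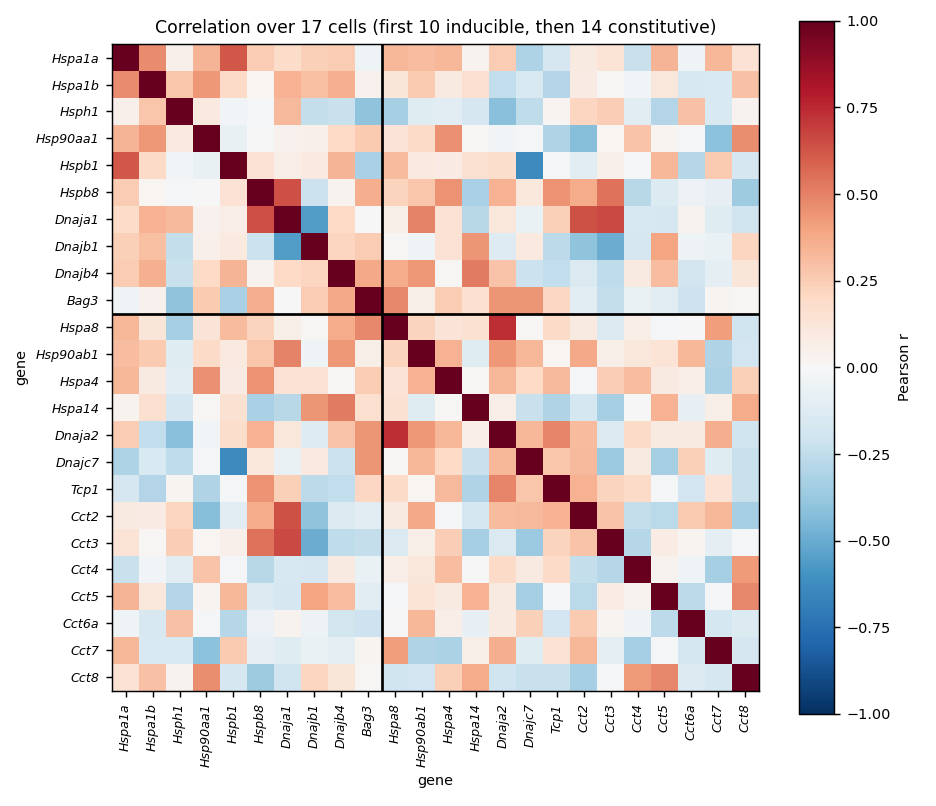
Pearson correlation over 17 cells between the 10 inducible genes and the 14 constitutive genes, with black lines between the lists. The highest value off the diagonal is Hspa8 with Dnaja2 at 0.74. The TRiC block at the lower right mixes signs, with 12 of 28 pairs above 0.

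Single pairs lay on both sides of 0. Among the 946 pairs of the 44 members detected in 9 or more cells, the mean was 0.0228. The highest were Dnajc8 with Dnajc10 (0.79, Spearman 0.73), Hspa8 with its J protein partner Dnaja2 (0.74, Spearman 0.78) and Cct6a with Hspd1 (0.71, Spearman 0.66). Next came Hsp90b1 with Hspd1 (0.67, and 0.44 without cells 2 and 4) and Dnaja2 with Dnajc3 (0.67). The lowest were Hspb1 with Dnajc10 (-0.70), Hspa8 with Hspe1 (-0.67) and Hspb1 with Dnajb11 (-0.66). With 946 pairs and 17 cells the extremes are picked from many values.

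Some pairs that share a promoter element or a complex can be read beside them. Hspa5 and Hsp90b1, which both hold the ER element, correlated at 0.61 (Spearman 0.66, and 0.71 without cells 12 and 14). Dnajc3, which holds it too, correlated at 0.38 with Hspa5 and 0.11 with Hsp90b1. Hspb1 and Hspa1a, each with a 2-unit heat shock element upstream, correlated at 0.62 (Spearman 0.60, and 0.51 without cells 10 and 13). Hspb1 and Hspa1b, whose printed stretch is the same as that of Hspa1a, stood at 0.19. Pairs of the 8 inducible genes with a 2-unit match ran from -0.40 (Bag3 with Hsph1) to 0.65 (Dnaja1 with Hspb8). Bag3 and Hspb8, whose proteins bind each other, stood at 0.37, or 0.18 without cells 12 and 14. The 0.65 of Dnaja1 and Hspb8 rested on cells 1 and 2, without which it was 0.10. Dnaja1 and Dnajb1 stood at -0.56 (Spearman -0.64), or -0.33 without those same cells. The HSP90 pair Hsp90aa1 and Hsp90ab1 stood at 0.19, at 0.37 without cells 15 and 16, and at 0.47 with the means of cells 1 to 5, 6 to 14 and 15 to 17 subtracted.

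Digestion also induces immediate-early genes, so the inducible members were set beside 17 of these. Each had a row, and 12 reached FPKM 1 in all cells, led by Fos (mean 10.03), Zfp36 (mean 8.71) and Dusp1 (mean 8.05). The cell mean of these genes ran from 3.88 in cell 8 to 7.91 in cell 17. It correlated with the inducible mean at 0.56 (Spearman 0.56, n = 17 cells, and 0.46 without cells 7 and 17). With the means of cells 1 to 5, 6 to 14 and 15 to 17 subtracted it was 0.53, and within cells 6 to 14 it was 0.43. The constitutive mean correlated with it at -0.02 (Spearman 0.07, and -0.41 without cells 7 and 17).

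Hspa1b had the largest single value. Its correlation with the immediate-early mean was 0.70 (Spearman 0.69, and 0.60 without cells 9 and 15). With Atf3, a stress-induced transcription factor of that list, it was 0.70, and with Fos 0.51. Apart from Hspa1b the Pearson values of inducible members with the immediate-early mean ran only from 0.02 (Dnajb4) to 0.35 (Hsph1). Those of constitutive members ran from -0.24 (Cct5) to 0.26 (Hspa8). By Spearman Dnajb4 stood at -0.002, Hsp90aa1 at 0.04, and Hspb1 and Dnajb1 at 0.07, while Dnaja1 stood at 0.48 and Hspb8 at 0.42. The mean Pearson value was 0.253 over inducible and 0.00551 over constitutive members, and -0.00166 over all symbols detected in 3 or more cells. The inducible value was 0.0862 with only members detected in all 17 cells and 0.161 with Hspd1 and Hspe1 added. The number of rows at the lowest value correlated with the inducible mean at 0.44 and with the immediate-early mean at 0.25. Within cells 6 to 14 the first of these was -0.05. After a linear fit on that number the mean over inducible members was 0.210, and the part of that number in the relation was not tested further.

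**Figure D5:**
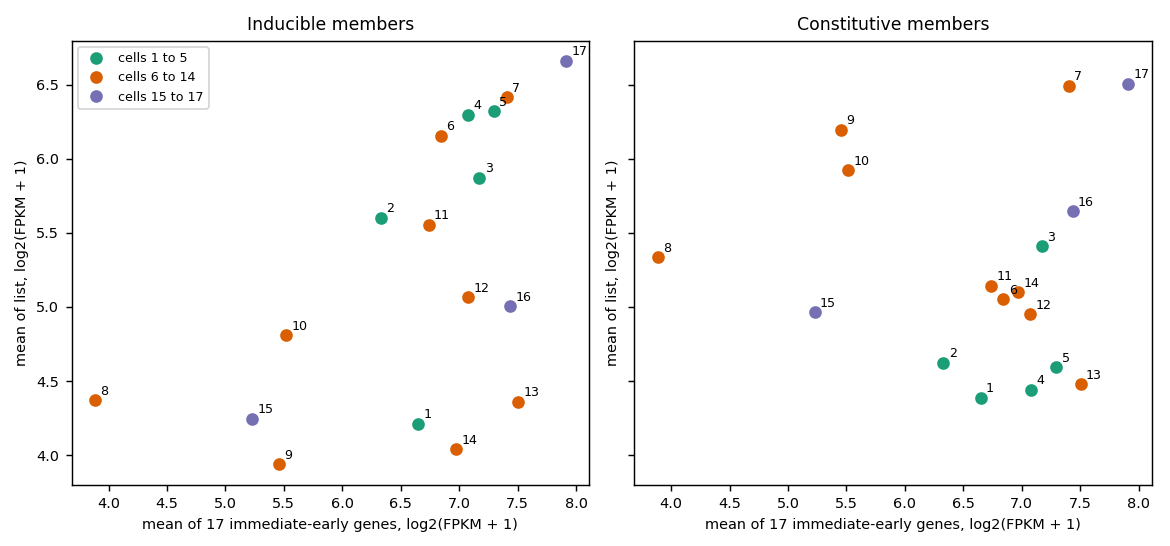
Mean of the inducible genes (left) and of the constitutive genes (right) against the mean of 17 immediate-early genes, all as log2(FPKM + 1), with 1 numbered point per cell and colours for 3 sets of consecutively numbered cells. Cell 17 is at the top of both panels. The inducible panel slopes upward (Pearson 0.56, or 0.46 without cells 7 and 17). The constitutive panel has a Pearson value of -0.02, or -0.41 without those cells.

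TRiC was compared with its clients and with prefoldin, which hands them over. All 10 listed actin and tubulin genes were measured and 8 were detected in all cells, with Actb (mean 10.80), Actg1 (mean 9.56) and Tuba1a (mean 8.51) the highest. The TRiC mean correlated with the client mean at 0.73 (Spearman 0.76, and 0.70 without cells 2 and 9), at 0.82 with set means subtracted and at 0.89 within cells 6 to 14. The tubulin genes Tubb2a and Tubb2b (0.67 each), Tuba1c and Tuba1b (0.60 each) and Tuba1a (0.57) had the highest single values with the TRiC mean. Actg1 (0.03) and Actb (-0.07) lay near 0. Single subunits correlated with the client mean at 0.07 (Cct4) to 0.48 (Cct5). Over the 80 pairs of a single subunit with a single client the mean was 0.139 (SD 0.243).

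The same TRiC mean correlated at 0.60 with the mean of the other ER genes, 0.48 with prefoldin, 0.45 with housekeeping genes and -0.03 with the inducible members. Prefoldin was led by Pfdn5 (mean 8.43), Pfdn2 (mean 5.46) and Pfdn1 (mean 4.32). Pfdn5 alone was detected in all cells of the 6 prefoldin genes. Prefoldin stood at 0.30 without cells 2 and 9, at 0.39 with set means subtracted and at 0.75 within cells 6 to 14.

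Chaperone partners outside the members were also measured in full. Of 17 such genes 7 were detected in all cells, and their median of means was 4.42. The polyubiquitin gene Ubb (mean 11.32) and the autophagy receptor gene Sqstm1 (mean 9.28) were among the highest.

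Outside the members, 3912 genes detected in 9 or more cells were ranked by correlation with the mean of the standardised inducible genes. The 10 highest were Ubap2l (0.79), Bnip3 (0.77), Mettl7a1 (0.75), Btg1 (0.72), Adh1 (0.71), Sfrp1, Man1a, Ccnl1 and Dmpk (0.70 each) and Erdr1 (0.69). The median over all ranked genes was 0.00320. None of the 10 is an immediate-early gene of the list or a chaperone partner of the list. Those lists held only 17 and 15 of the 3912 ranked genes, so their absence from the first 10 says little.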

How the data were processed

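Single-cell RNA libraries of 17 picked cells (SMART-Seq v4 3′ DE and Nextera XT, per the labels' protocols) were deposited as 1 table of 8446 rows. TopHat2, Cufflinks and GRCm38 are named in the submitters' processing notes. Versions, settings and strand use: not given in the sources used here. Values as deposited were taken as log2 of FPKM plus 1; base and constant are not stated. Back-transformed, each cell summed to 592939 to 592955. The sorted values were alike in all cells, so depth is unknown and no interval that needs it is given. The 14 symbols with several rows kept only their highest row by mean.

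No test was made, because the cells form 1 group with no named animals. Correlations used genes detected in 3 or more cells, rankings 9 or more. In all, 34 relations between genes or list means were computed, and for those named the 2 cells farthest from the median of the first measure were left out. The members and lists were chosen with earlier results of these data known, including the 3 sets of consecutively numbered cells. List members with a row are all named, and of the others the 5 highest by mean and the 5 largest by SD among genes detected in 4 to 13 cells. Of pairs, the 5 highest and 3 lowest are named. Of each list outside the members the 3 highest are named, except 1 gene that is not reported here. Other relations were picked after their values were seen. Positions are GENCODE M21 on GRCm38, which matched all 65 members by identifier. Annotated exons of 13 members overlap those of another measured gene. No RefSeq promoter window was matched for Bag4, Cct4, Dnajc11, Dnajc18, Dnajc2, Dnajc30, Dnajc5, Hsf1, Hsp90aa1, Hsp90ab1, Hspa13, Hspa8, Hspa9 and Hspb2. The correlation code was tested on simulated data. Software was matplotlib 3.10.9, scipy 1.17.1, pandas 2.3.3 and numpy 2.4.6 under Python 3.11.15.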

Additional observations from a re-analysis of the deposited data

How the results depend on the processing

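No paired analysis was possible because all cells form 1 group. Of 46 values under alternative settings, apart from leaving out single cells, none reversed and 38 moved by less than the spread used. That spread was 1 SD over cells, pairs or genes for levels and correlations, and 1.5 times for counts. For the correlations it is close to the values or wider, so this says little of their stability. For the SD of a cell mean the spread was the approximate standard error of that SD, 0.166 for inducible and 0.123 for constitutive members. The number of members detected in all 17 cells was 39 when any value over the cell's lowest counted, 6 at FPKM 5 and 4 at FPKM 10, against 15 at FPKM 1. Without TRiC subunits the constitutive median level was 3.28 and the SD of its cell mean 1.03, and with a pseudocount of 0.1 that SD was 0.846. With Hspd1 and Hspe1 added the SD of the inducible cell mean was 0.714 and the mean pairwise correlation 0.0497, against 0.133. The mean pairwise correlation of constitutive members was 0.00169 with only members detected in all cells, against 0.0641. The 2-unit heat shock element was found in 8 inducible genes and the 3-unit form in 1.

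Leaving out each cell in turn, the mean pairwise correlation ran from 0.108 to 0.152 for inducible and from 0.0346 to 0.0741 for constitutive members, and from 0.0134 to 0.0711 across the lists. The mean correlation of inducible members with the immediate-early mean ran from 0.209 to 0.296, lowest without cell 17. With only members detected in all cells it was 0.0862, against 0.253, with Hspd1 and Hspe1 added 0.161, and in cells 6 to 14, a setting chosen after the data were seen, 0.181. The causes were not tested.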
